A study of Mus musculus with 24 samples.

Results

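The enzymes and regulators of cholesterol synthesis described here are 7 genes, taken by symbol from the deposited expression tables: Hmgcs1, Idi1, Fdft1, Sqle and Cyp51, which encode enzymes of the pathway, and Insig1 and Srebf2, which encode regulators of it. All 7 were listed in each of the 4 tables, among 14014 genes common to the tables and 14769 in any of them. They were followed between the sampled sides of the cortex, CL and PI, within each genotype, and between genotypes within each side.

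RNA had been sequenced from the cortex of male mice, 3 to 4 months old, after transient middle cerebral artery occlusion (tMCAo), a model of ischemic stroke in which a filament closes the artery for 1 h and blood flow is then restored, here for 1 day. All groups had this surgery, so no group is free of it. Each genotype gave 6 CL and 6 PI libraries, 24 in all in 4 groups. WT are wild-type animals, and KO are animals without ciRS-7 (Cdr1as), a circular RNA with many binding sites for the microRNA miR-7. The strain given for both genotypes is C57BL/6N-Cdr1asem1Nikr. The sources used here do not expand the marks CL and PI. A CL and a PI library of one genotype carry the same number in their titles, which is taken here to mark 1 animal. Replicates are therefore taken as 6 animals per genotype.

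Cells make cholesterol from acetyl-CoA through mevalonate, isoprenoids, squalene and a series of sterols. When sterol in the endoplasmic reticulum is low, the transcription factor SREBP2, the product of Srebf2, is carried by SCAP to the Golgi, cut there, and switches on most genes of the pathway. When sterol is plentiful, INSIG proteins hold SCAP and SREBP2 back. The adult brain makes nearly all of its own cholesterol, since lipoproteins of the blood do not cross the blood-brain barrier, and in the adult brain astrocytes and oligodendrocytes are major producers.

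RefSeq promoter windows (GRCm38.p6) were at hand for 5 of the 7 genes: Hmgcs1, Insig1, Idi1, Cyp51 and Srebf2. In the 250 bases before each start, both strands were searched for the classic sterol regulatory element SRE-1, for the shorter letters TCACNCCAC that it contains, and for CCAAT, the box bound by NF-Y, a factor that acts with SREBP. A match to SRE-1, an element that SREBP binds, is thus also a match to TCACNCCAC. The letters TCACNCCAC were found in 1 of the 5 windows, that of Hmgcs1, and in 1.05% of 32851 promoter windows. SRE-1 was found in 0 of the 5 and in 0.0731% of all windows, and CCAAT in 5 of 5 and in 33.8% of all. The CCAAT matches of Idi1 and Cyp51 all lie in the last 105 and 49 bases of their windows, which GENCODE M21 places within the gene. Windows are shown for Hmgcs1, whose level was called higher in PI in both genotypes, and for the regulators Insig1 and Srebf2. The windows of Idi1, also called higher in PI in both genotypes, and of Cyp51 are not shown. Without the bases that GENCODE M21 places within the gene, those windows hold no matched letters. Capitals mark the matched letters, 5′ to 3′ on the gene's strand (plus in all 3), and bases inside an exon of the gene in GENCODE M21 are left out.
Hmgcs1, chr13:119690101-119690350: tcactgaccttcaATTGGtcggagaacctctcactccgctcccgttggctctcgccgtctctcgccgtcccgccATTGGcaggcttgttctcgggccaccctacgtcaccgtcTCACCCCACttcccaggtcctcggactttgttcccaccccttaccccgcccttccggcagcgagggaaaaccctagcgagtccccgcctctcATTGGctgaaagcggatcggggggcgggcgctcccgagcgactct
Insig1, chr5:28071162-28071362: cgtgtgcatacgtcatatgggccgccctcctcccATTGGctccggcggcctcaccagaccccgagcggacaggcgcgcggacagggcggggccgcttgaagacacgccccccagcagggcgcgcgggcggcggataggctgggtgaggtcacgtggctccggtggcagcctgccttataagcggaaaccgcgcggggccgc
Srebf2, chr15:82147019-82147180: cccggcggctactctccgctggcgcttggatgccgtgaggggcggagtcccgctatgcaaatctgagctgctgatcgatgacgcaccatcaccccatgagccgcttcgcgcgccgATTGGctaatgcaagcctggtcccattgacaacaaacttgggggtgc
In Hmgcs1 the TCACNCCAC match lies 137 to 129 bases before the RefSeq start, with CCAAT on the opposite strand (read here as ATTGG) at 3 places, the nearest 45 to 41 bases before it. Insig1 has ATTGG 216 to 212 bases and Srebf2 135 to 131 bases before the start. A match of letters is a description and not a measured binding site.

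Expression was deposited as log2 CPM, reads per gene scaled to the size of the library, in 4 tables that each hold 2 groups and were scaled separately. In every gene the 2 lowest and the 2 highest values of a group of 6 were tied at the group's quartiles, so the deposited extremes are not measured values. The second lowest to the second highest value can be solved from this and are called recovered values here. The lowest and the highest library are not known. Groups were compared by the trimmed mean of the 4 recovered values, with limma's moderation of the error across all genes of a table. A gene is called at a Benjamini-Hochberg adjusted p under 0.05, n is 6 libraries per group, SE is the standard error of a log2 fold change, and the 2 groups of a comparison come from 1 table. Effective depth ran from 5.27 to 10.5 megareads per library, and 3 reads, taken as the limit of detection by counting error, correspond to at most 0.569 CPM. The lowest recovered value of any of the 7 genes in the tables of PI and CL was 34.95 CPM, of Sqle in CL KO. In the tables of KO and WT, scaled separately for each side, Cdr1as was present in WT (median 3678 CPM in CL WT and 2691 CPM in PI WT). Its second highest value in the KO groups there was 0.148 CPM in CL and 0.169 CPM in PI, under that limit. Of marker lists, 5 of 5 excitatory neuron markers were listed in every table, 3 of 5 striatal markers (not Drd2 or Adora2a) and 1 of 4 choroid plexus markers.

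Between PI and CL cortex of the same animals, Hmgcs1 and Idi1 rose in PI in both genotypes, Cyp51 rose in WT and Sqle rose in KO, each by less than 1 on the log2 scale. These calls are from the trimmed-mean test, which does not use the pairing of CL and PI within an animal. In WT, 3 of the 7 genes rose in PI (Hmgcs1, Idi1 and Cyp51), 0 fell and 4 were not called, with a median log2 fold change of 0.29. In KO, 3 rose (Hmgcs1, Idi1 and Sqle), 0 fell and 4 were not called, with a median of 0.22. Over all genes of these tables, 10.6% were called in WT and 10.0% in KO in either direction, 5.20% and 5.11% as higher, 5.40% and 4.94% as lower, and the median log2 fold change was 0.01 in WT and -0.00068 in KO. An unadjusted p under 0.05 was reached by 5 of the 7 in WT and 4 in KO, where 23.9% and 24.9% of all genes reached it. With the animal as a block 5 of the 7 were called in WT and 4 in KO, where 15.7% and 15.0% of all genes were called. The block added Sqle and Insig1 in WT and Insig1 in KO, so that both genes were then called in both genotypes. The recovered values of PI and CL did not overlap in 5 of the 7 genes in WT, all higher in PI, against 26.3% of all genes in either direction. In KO the same 5 genes, Hmgcs1, Idi1, Sqle, Cyp51 and Insig1, had recovered values in PI above all those in CL, against 26.8% of all genes. Because the tissue is bulk cortex, more transcript per cell and a changed mix of cells cannot be told apart in these values.

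**Figure D1:**
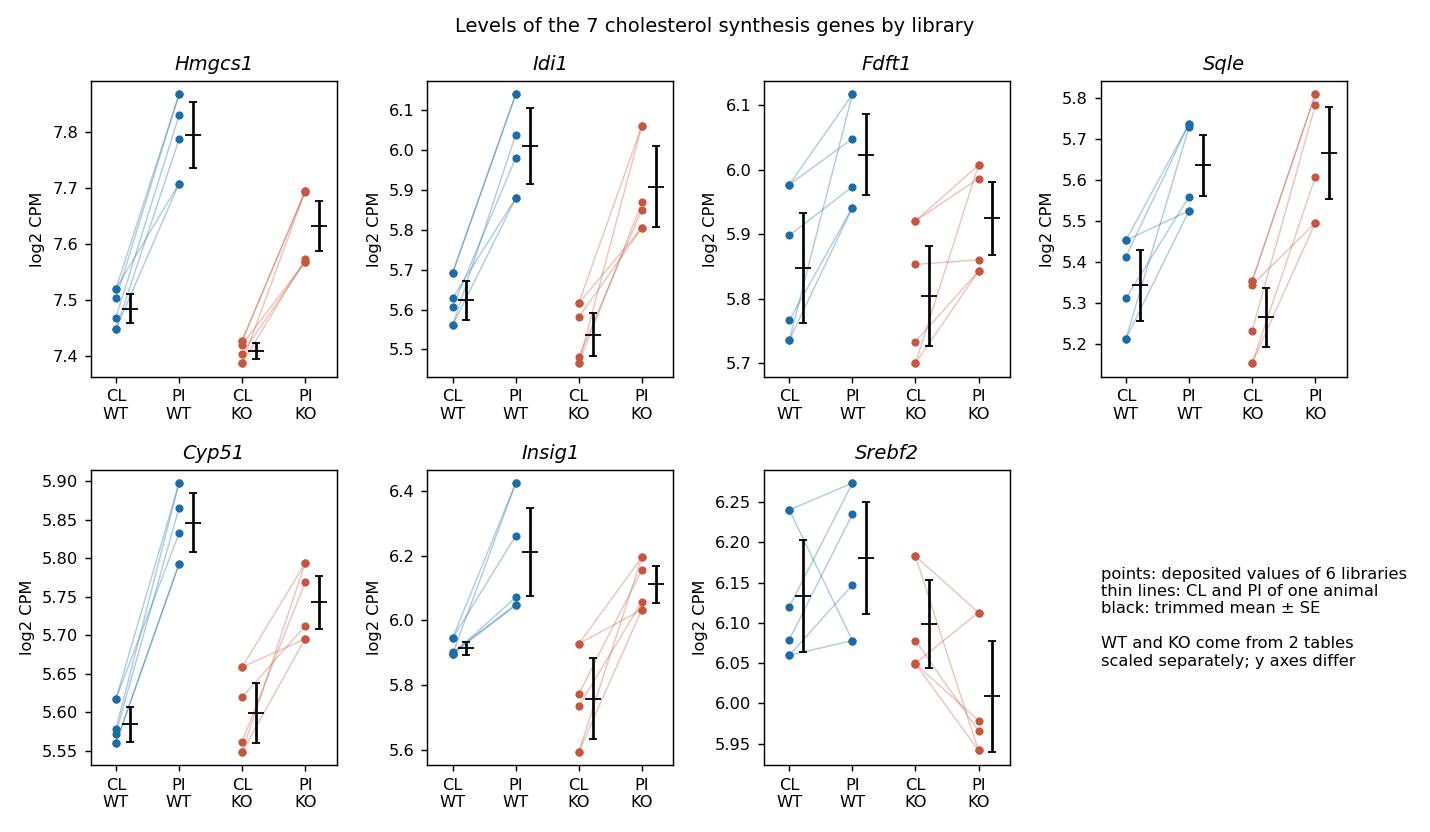
Deposited log2 CPM of each of the 7 genes (y axis, a scale of its own in each panel) by group (x axis), as points for 6 libraries with ties overlapping, thin lines joining the CL and PI library of an animal, and the trimmed mean ± SE in black. In Hmgcs1, Idi1, Sqle, Cyp51 and Insig1 the PI points lie above the CL points in both genotypes, whereas in Srebf2 they overlap.

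Hmgcs1 encodes the cytosolic synthase that joins acetyl units on the way to mevalonate. Its second lowest, median and second highest values were 174, 179 and 184 CPM in CL WT and 205, 224 and 235 CPM in PI WT. In KO they were 167, 170.2 and 172 CPM in CL and 189, 198 and 207 CPM in PI. In neither genotype did the recovered values of the sides overlap. The log2 fold change in WT was 0.31 (SE 0.06, adjusted p = 0.00686), a level 1.24-fold higher in PI. In KO it was 0.22 (SE 0.06, adjusted p = 0.0274), a level 1.17-fold higher. The gene lies on chromosome 13 from 119690351 to 119708260 in GRCm38.p6, and 12.1% of its exon bases in GENCODE M21 are shared with the antisense model Gm48342, so without knowledge of the strand used in counting some reads are uncertain.

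Idi1 encodes isopentenyl-diphosphate isomerase, which supplies the activated isoprene unit for all isoprenoids. Its recovered values were 46.7 to 52.4 CPM in CL WT (median 49.1) and 57.5 to 72.1 CPM in PI WT (median 64.4). CL KO ranged from 44.0 to 49.4 CPM (median 46.2) and PI KO from 55.3 to 69.7 CPM (median 58.0). All recovered PI values were thus above all those in CL of the same genotype. Idi1 rose by 0.39 on the log2 scale in WT (SE 0.09, adjusted p = 0.0165) and by 0.37 in KO (SE 0.10, adjusted p = 0.0321), the largest change of the 7 genes in WT. The gene lies on chromosome 13 from 8885606 to 8892396, and the model Gm48574 on the opposite strand shares 9.22% of its exon bases.

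Fdft1 encodes squalene synthase, the first enzyme committed to sterols. It ranged over its recovered values from 52.9 to 64.2 CPM in CL WT (median 57.0), from 61.0 to 70.5 CPM in PI WT (median 64.5), from 51.6 to 61.5 CPM in CL KO (median 55.5) and from 57.2 to 64.6 CPM in PI KO (median 60.7). The sides overlapped in both genotypes, and the gene was not called, with log2 fold changes of 0.17 in WT (95% interval -0.02 to 0.37, adjusted p = 0.266) and 0.12 in KO (95% interval -0.07 to 0.31, adjusted p = 0.439). It shares 18.3% of its exon bases on chromosome 14 (gene from 63145150 to 63181687) with the cathepsin gene Ctsb on the opposite strand, whose own log2 fold changes were 0.04 in WT and 0.14 in KO, neither called (adjusted p = 0.706 and adjusted p = 0.133). Medians of Ctsb were 312 CPM in CL WT, 326 CPM in PI WT and, in KO animals, 309 CPM in CL and 342 CPM in PI, well above Fdft1, and without the strand used in counting, reads of Ctsb in the values of Fdft1 cannot be told apart.

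Sqle encodes squalene epoxidase, the first oxygen-dependent step and a second point of control of the pathway. Its recovered values ran from 36.3 to 44.2 CPM in CL WT (median 41.2) and from 45.7 to 53.4 CPM in PI WT (median 50.01). For CL KO they ran from 34.95 to 41.0 CPM (median 39.1) and for PI KO from 44.0 to 56.4 CPM (median 51.8). The sides did not overlap in either genotype. In KO Sqle rose by 0.40 (SE 0.11, adjusted p = 0.0368), 1.32-fold and the largest change of the 7 genes in that genotype. In WT its log2 fold change of 0.29 (SE 0.10, adjusted p = 0.0743) missed the threshold, and with the animal as a block the adjusted p = 0.00838. The gene lies on chromosome 15 from 59315092 to 59331193, with no shared exon bases.

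Cyp51 encodes lanosterol 14-alpha-demethylase, the first step after the sterol ring has formed. Recovered values were 47.0 to 49.5 CPM in CL WT (median 47.7), 54.9 to 60.04 CPM in PI WT (median 57.6), 46.7 to 51.0 CPM in CL KO (median 48.2) and 51.6 to 55.8 CPM in PI KO (median 53.5). The PI values lay above the CL values in both genotypes, with a narrower gap in KO. Cyp51 rose by 0.26 in WT (SE 0.06, adjusted p = 0.0170). In KO its log2 fold change was 0.14 (SE 0.07, adjusted p = 0.220), which was not called. The gene lies on chromosome 5 from 4080674 to 4104697 and shares 3.76% of its exon bases with Akap9 on the opposite strand, which was not called in either genotype (adjusted p = 0.543 in WT and adjusted p = 0.154 in KO).

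Of the regulators, Insig1, whose protein retains SCAP in the endoplasmic reticulum and whose gene is itself a target of SREBP, had recovered values of 59.6 to 62.2 CPM in CL WT (median 59.7) and 65.8 to 89.1 CPM in PI WT (median 71.8). In CL KO they were 46.8 to 63.1 CPM (median 54.0) and in PI KO 65.1 to 73.9 CPM (median 68.9). The sides did not overlap, but the spread was wide in PI WT and in CL KO. Its log2 fold changes were 0.30 in WT (SE 0.11, adjusted p = 0.103) and 0.35 in KO (SE 0.11, adjusted p = 0.0606), neither called. With the animal as a block both passed (adjusted p = 0.00418 in WT and adjusted p = 0.00440 in KO). Insig1 lies on chromosome 5 from 28071412 to 28078662.

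Srebf2, which encodes SREBP2 itself, had overlapping values on both sides and was not called. Its recovered values were 66.4 to 77.7 CPM in CL WT (median 68.6) and 66.5 to 78.1 CPM in PI WT (median 73.1), ranges that nearly coincide. In KO they were 66.2 to 74.4 CPM in CL (median 66.9) and 61.1 to 71.4 CPM in PI (median 62.8), again overlapping. The log2 fold change was 0.05 in WT (95% interval -0.14 to 0.23, adjusted p = 0.794) and -0.09 in KO (95% interval -0.27 to 0.09, adjusted p = 0.554). The gene lies on chromosome 15 from 82147269 to 82205379.

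These calls have 2 limits. With a prior variance that has no trend with expression, all 3 calls in KO were lost (adjusted p = 0.0950 for Hmgcs1, adjusted p = 0.0967 for Idi1 and adjusted p = 0.105 for Sqle), as was Idi1 in WT (adjusted p = 0.0665). When each library was centred on its median gene, the calls of the 7 genes stayed at 3 in each genotype, while the share of all called genes that were higher in PI went from 49.1% to 37.1% in WT and from 50.8% to 38.6% in KO.

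Across the wider pathway, 20 genes from acetyl-CoA to cholesterol were followed in all comparisons. In WT 4 rose in PI (Hmgcs1, Idi1, Cyp51 and Msmo1), 0 fell and 16 were not called, with a median log2 fold change of 0.25, and 16 of the 20 estimates were above 0, where 47.7% of all genes were below 0. In KO 5 rose (Hmgcs1, Idi1, Sqle, Lss and Msmo1), 0 fell and 15 were not called, with a median of 0.16 and 19 of 20 estimates above 0, where 50.1% of all genes were below 0. With the animal as a block 8 rose in WT, the further ones being Sqle, Fdps, Hsd17b7 and Dhcr7, of which the last 2 are named after their values were seen. In KO the block gave 5. Over all genes the trimmed-mean test called 10.6% in WT and 10.0% in KO, and the block 15.7% and 15.0%. With no trend in the prior variance the count in KO was 2 of 20.

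Msmo1, the sterol C4-methyl oxidase that acts after Cyp51, had the largest called change of the list in WT. Its recovered values were 59.2 to 66.8 CPM in CL WT and 80.0 to 91.2 CPM in PI WT, and 57.1 to 65.1 CPM in CL and 75.4 to 86.3 CPM in PI of KO animals. It rose by 0.46 in WT (SE 0.07, adjusted p = 0.00173) and by 0.41 in KO (SE 0.08, adjusted p = 0.00622). Lss, the cyclase that forms lanosterol, rose by 0.42 in KO (SE 0.07, adjusted p = 0.00360), from 27.4 to 36.6 CPM by medians. In WT its log2 fold change was 0.23 (SE 0.08, adjusted p = 0.0973). The larger estimates of the list in WT were those of Mvd, the mevalonate diphosphate decarboxylase, at 0.57 (SE 0.23, adjusted p = 0.151), and Fdps, the farnesyl diphosphate synthase, at 0.49 (SE 0.21, adjusted p = 0.167, and adjusted p = 0.00738 with the animal as a block). Both had wide errors, and in KO they were 0.15 (SE 0.22) for Mvd and 0.05 (SE 0.15) for Fdps. Summed over the 20 genes, the deposited values ran from 653 to 699 CPM in CL WT and from 756 to 857 CPM in PI WT, and from 629.9 to 663 CPM in CL KO and from 725 to 795 CPM in PI KO. The tied extremes enter these sums, so the true range over libraries is not known.

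**Figure D2:**
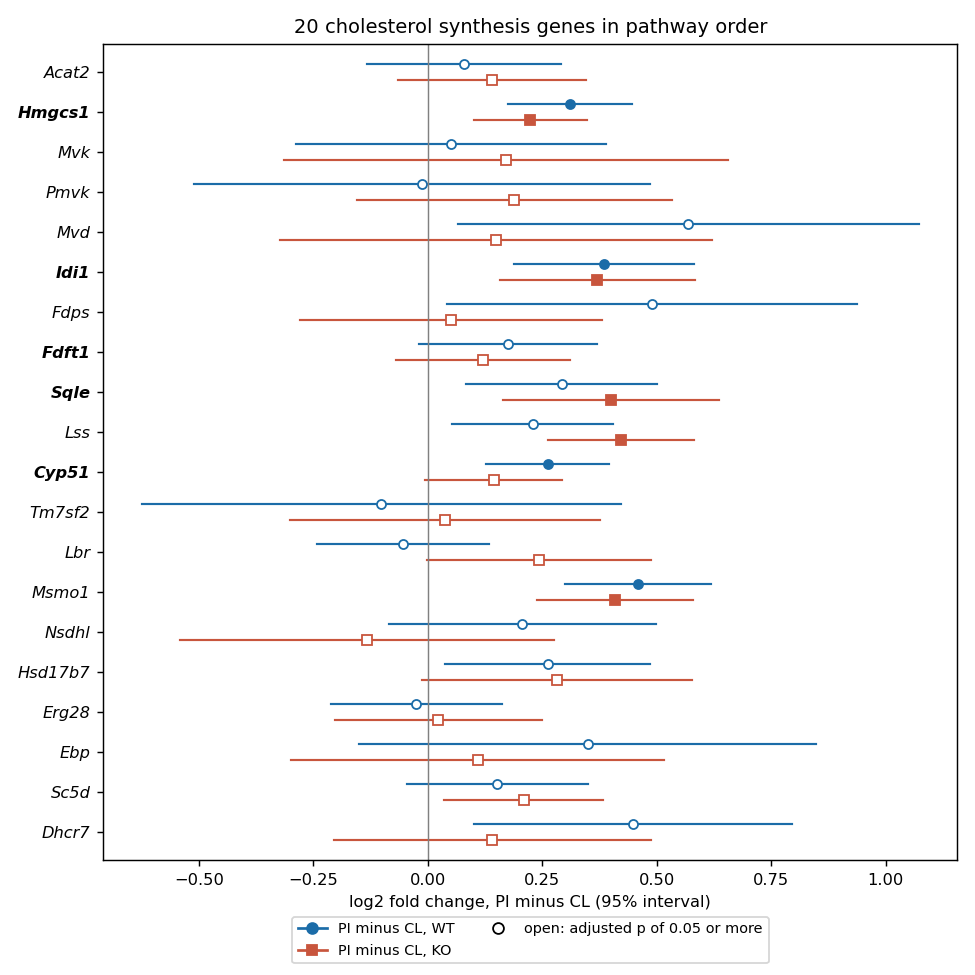
Log2 fold change of PI against CL with its 95% interval (x axis) for the 20 genes of cholesterol synthesis in the order of the pathway (y axis, the genes described one by one in bold), in WT (circles) and KO (squares), filled where called. Estimates lie above 0 for 16 of 20 genes in WT and 19 of 20 in KO, and the called ones lie between 0.22 and 0.46.

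Of 10 genes of the machinery that controls SREBP, Srebf2 and Insig1 among them, 0 were called in either genotype by the trimmed-mean test, with 3 in WT and 1 in KO at an unadjusted p under 0.05 and medians of 0.01 and 0.03. Over all genes 23.9% in WT and 24.9% in KO reached such a p, so these counts are not above that background. With the animal as a block 2 were called in WT (Insig1 and Rnf145) and 1 in KO (Insig1), all higher in PI. The block called 15.7% of all genes in WT and 15.0% in KO. Rnf145, a ubiquitin ligase of sterol-regulated turnover, was at 0.21 in WT (SE 0.07, adjusted p = 0.0941, and adjusted p = 0.0343 with the animal as a block) and 0.11 in KO (SE 0.06, adjusted p = 0.297). Scap, the carrier of SREBP2, was at -0.02 in WT (SE 0.08) and -0.12 in KO (SE 0.10, adjusted p = 0.512). Of 6 genes of sterol uptake and transport in these tables, 1 fell and 0 rose in WT, and 0 were called in KO, where 2 had an unadjusted p under 0.05. With the animal as a block 3 were called in WT (Stard4, Vldlr and Npc1) and 1 in KO (Stard4). Stard4, a sterol carrier that is also a target of SREBP2, had estimates of 0.40 in both (adjusted p = 0.0513 in WT and adjusted p = 0.0971 in KO), which passed with the animal as a block (adjusted p = 0.000218 in WT and adjusted p = 0.00823 in KO). Vldlr, a lipoprotein and reelin receptor, fell in WT by 0.27 (SE 0.05, adjusted p = 0.00713), and in KO its log2 fold change was -0.11 (SE 0.06, adjusted p = 0.312). Npc1, which exports cholesterol from lysosomes and is named after its values were seen, was at -0.25 in WT (SE 0.08, adjusted p = 0.0613, and adjusted p = 0.00949 with the animal as a block) and -0.18 in KO (SE 0.06, adjusted p = 0.0886). Mylip, a ubiquitin ligase of lipoprotein receptors, was at 0.24 in WT (SE 0.11, adjusted p = 0.224) and 0.22 in KO (SE 0.11, adjusted p = 0.258).

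Of the enzymes that turn cholesterol into oxysterols, 3 listed in the WT table and 4 in the KO table, Ch25h rose and Cyp46a1 fell in both genotypes. Cyp46a1, the neuronal 24-hydroxylase through which the brain disposes of cholesterol, fell in PI by 0.31 in both genotypes (SE 0.07, adjusted p = 0.0120 in WT, SE 0.08, adjusted p = 0.0325 in KO). Its recovered values were 54.6 to 61.1 CPM in CL WT and 45.9 to 50.1 CPM in PI WT, and 54.8 to 62.0 CPM in CL and 43.3 to 51.2 CPM in PI of KO animals. Ch25h, an interferon-inducible hydroxylase of macrophages and microglia whose product blocks SREBP processing, rose by 2.63 in WT (SE 0.42, adjusted p = 0.00178) and by 1.65 in KO (SE 0.42, adjusted p = 0.0276). These are few reads, with medians of 0.582 CPM in CL WT and 4.24 CPM in PI WT, and 1.02 CPM in CL and 3.09 CPM in PI of KO animals, the first close to the limit of 3 reads.

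**Figure D3:**
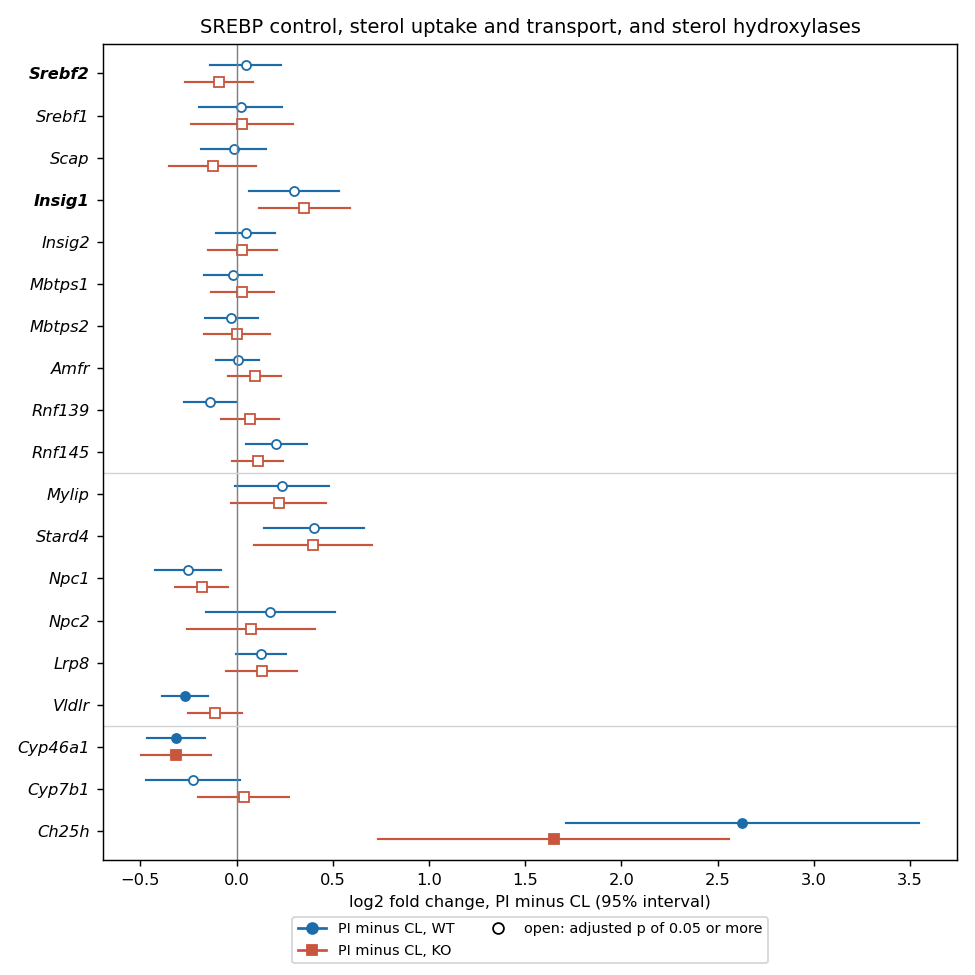
Log2 fold change of PI against CL with its 95% interval (x axis) for genes of SREBP control (top), sterol uptake and transport (middle) and sterol hydroxylases (bottom) in WT (circles) and KO (squares), filled where called. Ch25h lies above 0 and Cyp46a1 below 0 in both genotypes, while no gene of SREBP control is filled. Cyp27a1, listed in the KO table but not the WT table, is not drawn.

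In neighbouring lipid pathways 1 gene was called, in WT. Of 13 fatty acid synthesis genes, many of them targets of the related factor SREBP1, 1 fell in WT and 0 rose, and 0 were called in KO by the trimmed-mean test, where 1 had an unadjusted p under 0.05. The medians were -0.01 in WT and 0.03 in KO. The gene that fell in WT was Scd1, a stearoyl-CoA desaturase, by 0.18 (SE 0.05, adjusted p = 0.0412), and its value in KO was -0.06 (SE 0.07). Acacb, a mitochondrial acetyl-CoA carboxylase, had the largest estimates with wide errors, -0.51 in WT (SE 0.37, adjusted p = 0.455) and -0.64 in KO (SE 0.46, adjusted p = 0.431). The fatty acid synthase gene Fasn was at 0.25 in WT (SE 0.09, adjusted p = 0.103), with adjusted p = 0.00464 with the animal as a block, and the malic enzyme gene Me1 was at 0.19 in WT (SE 0.06, adjusted p = 0.0699) and 0.20 in KO (SE 0.08, adjusted p = 0.120). Fasn was at 0.14 in KO (SE 0.07, adjusted p = 0.206). Of 7 genes that use isoprenoids outside the sterol branch 0 were called in either genotype, with 2 in WT and 1 in KO at an unadjusted p under 0.05. Over all genes 10.6% in WT and 10.0% in KO were called, and 23.9% and 24.9% reached such a p. The prenyltransferase subunit gene Pggt1b was at 0.32 in WT and 0.29 in KO. Fntb was at 0.31 in WT (SE 0.11, adjusted p = 0.0902 by the trimmed-mean test) and -0.03 in KO. Pdss2 was at 0.22 in WT (SE 0.13, adjusted p = 0.323) and -0.24 in KO. The difference of this change between genotypes was called in 0 of the 7, so a reversal was not shown.

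Markers of the cell types that make or receive cholesterol also differed between the sides. Summed over 7 of 7 oligodendrocyte markers, the deposited values ranged from 2147 to 2342 CPM in CL WT, 1499 to 2113 CPM in PI WT, 1711 to 2325 CPM in CL and 1654 to 1877 CPM in PI of KO animals, with Cnp called lower in PI in WT and 0 of 7 called in KO (1 at an unadjusted p under 0.05). For 6 of 6 astrocyte markers the sums were 7454 to 7857 CPM in CL WT, 6468 to 6870.4 CPM in PI WT, 7467 to 7970.2 CPM in CL and 6281 to 6964 CPM in PI of KO animals. For 5 of 5 neuron markers they were 7204 to 7732 CPM in CL WT, 6172 to 6777 CPM in PI WT, 7053 to 7469 CPM in CL and 5971 to 6570.2 CPM in PI of KO animals. Of the astrocyte markers 1 rose and 2 fell in WT and 1 rose and 1 fell in KO, and of the neuron markers 2 fell in each genotype. These sums of deposited values were lower in PI, apart from an overlap for oligodendrocytes in KO. Reactive astrocyte markers were all higher, with 6 of 6 called in each genotype and sums of 102 to 127 CPM in CL WT, 422 to 486 CPM in PI WT, 98.7 to 115 CPM in CL and 408 to 574 CPM in PI of KO animals. Microglia marker sums overlapped in WT, with 151 to 163 CPM in CL and 155 to 176 CPM in PI, and also in KO, with 160.4 to 174 CPM in CL and 171 to 207 CPM in PI. The part of these cell types in the values of the cholesterol genes was not tested.

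The comparison of genotypes asked whether loss of ciRS-7 was accompanied by a different level of these genes. In CL cortex 0 of the 7 genes were called between KO and WT and 0 had an unadjusted p under 0.05, where 0.0279% of all genes were called and 5.73% had such a p. In PI cortex 0 of 7 were called and 1 had an unadjusted p under 0.05, where 0.0208% of all genes were called and 5.75% had such a p. With a replicate block 0 of the 7 were called in either side, where 0.593% of all genes were called in CL and 0.0415% in PI. Limma on the deposited values, which understates the spread, called 1 of the 7 in CL (Hmgcs1) and 2 in PI (Hmgcs1 and Srebf2), all lower in KO. The same setting called 2311 of 14323 genes in CL and 2388 of 14452 in PI, so these calls do not set the 7 genes apart. Estimates were below 0, lower in KO, in 6 of 7 genes in CL (median -0.07) and 6 of 7 in PI (median -0.09), where 50.8% and 51.5% of all genes were below 0.

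The difference with the smallest p was in Hmgcs1 in PI. In the table of PI KO and PI WT its recovered values were 7.60 to 7.73 log2 CPM in KO and 7.71 to 7.91 in WT, ranges that overlap slightly. In PI the recovered values of the genotypes were fully apart in 0 of the 7 genes and in 8.97% of all. The log2 difference was -0.15 (SE 0.07, adjusted p = 0.854). In CL its recovered values were 7.35 to 7.40 log2 CPM in KO and 7.41 to 7.49 in WT, which did not overlap, as in 8.67% of all genes, but the difference of -0.07 was not called (SE 0.05, adjusted p = 0.908). Srebf2 in PI was at -0.17 (95% interval -0.36 to 0.02, adjusted p = 0.854), with 5.97 to 6.19 log2 CPM in KO and 6.08 to 6.31 in WT. Insig1 had the lowest estimate in CL, -0.15 (95% interval -0.37 to 0.07, adjusted p = 0.908), with 5.52 to 5.95 log2 CPM in KO and 5.86 to 5.93 in WT. For Sqle the difference was -0.07 in CL (95% interval -0.28 to 0.14) and 0.04 in PI (95% interval -0.20 to 0.28), for Cyp51 0.02 (95% interval -0.11 to 0.16) and -0.09 (95% interval -0.24 to 0.05). For Idi1 it was -0.08 (95% interval -0.24 to 0.08) and -0.09 (95% interval -0.34 to 0.15), and for Fdft1 -0.04 (95% interval -0.24 to 0.17) and -0.09 (95% interval -0.27 to 0.09). The 95% intervals of all 7 genes in CL and of all but Hmgcs1 in PI include 0, and they do not show that the genotypes were alike. Of the 20 synthesis genes 0 were called in CL or in PI, with 1 each at an unadjusted p under 0.05.

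An interaction, the change from CL to PI in the KO animals minus that in the WT animals, tested whether the response depended on genotype. By the trimmed-mean test 0 of the 7 genes were called and 0 had an unadjusted p under 0.05. Over all 14211 genes this test called 0%, and 4.55% had such a p. Limma on the deposited values, which understates the spread, called 0 of the 7 and 1940 of the 14211 genes. With a replicate block 0 of the 7 and 0.00704% of all genes were called. The estimates ran from -0.14 for Srebf2 (95% interval -0.39 to 0.12, adjusted p = 0.992) to 0.11 for Sqle (95% interval -0.21 to 0.43, adjusted p = 0.992). Cyp51, called in WT and not in KO, had a difference of -0.12 (95% interval -0.30 to 0.07, adjusted p = 0.992), so the changes in WT and KO were not shown to differ. The same holds for Hmgcs1 at -0.09 (95% interval -0.26 to 0.09), Fdft1 at -0.05, Idi1 at -0.02 and Insig1 at 0.05.

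**Figure D4:**
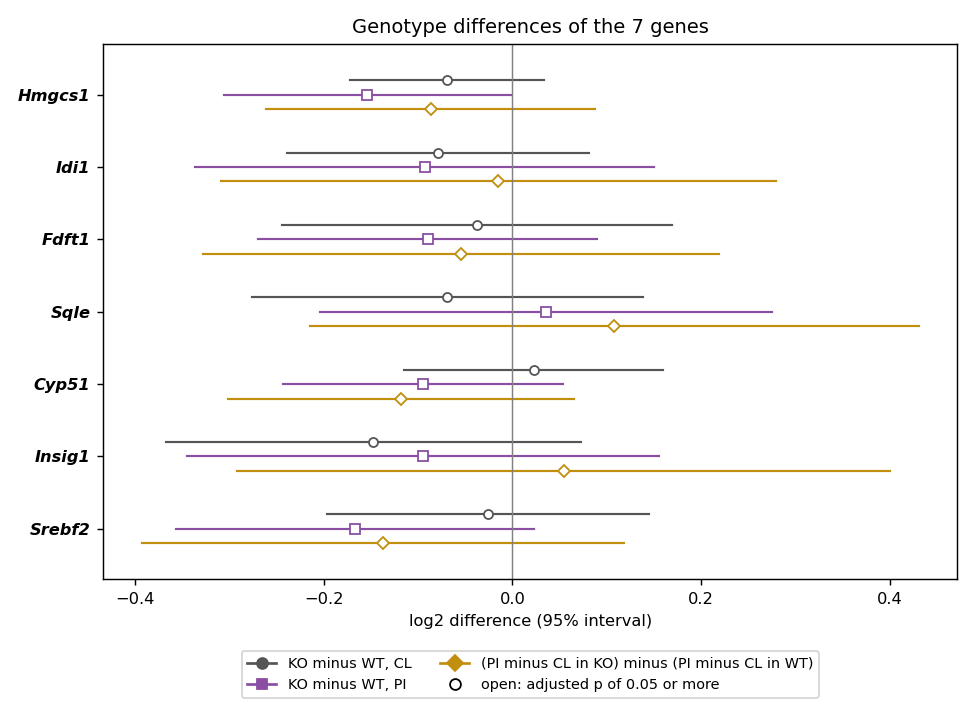
Log2 difference with its 95% interval (x axis) of each of the 7 genes (y axis) between KO and WT in CL (circles) and in PI (squares), and of the PI minus CL change in KO less that in WT (diamonds). No symbol is filled, since none was called, and the estimates lie between -0.17 and 0.11.

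Among libraries of one group the 7 genes varied together to different degrees. Over 24 libraries, deviations of the deposited values from their group means correlated for the 21 pairs of the 7 genes with Pearson's r from 0.06 (Hmgcs1 and Cyp51) to 0.73 (Hmgcs1 and Idi1), with a median of 0.34. Set against the mean of the other 6, r was 0.76 for Insig1, 0.73 for Idi1, 0.68 for Hmgcs1, 0.57 for Sqle, 0.46 for Fdft1, 0.28 for Srebf2 and 0.22 for Cyp51. The genes most like the mean of the 7 in this measure, among 13510 others with a mean of at least 1 log2 CPM, were Acaca (r = 0.71), the acetyl-CoA carboxylase of fatty acid synthesis, Stard4 (0.71), Klhl5 (0.69), Slc25a33 (0.69) and Fasn (0.69). Msmo1 ranked 11 (r = 0.66) and Sc5d, the lathosterol oxidase, ranked 19 (r = 0.63), the highest of the other synthesis genes followed here. The lowest of those were Mvd (r = -0.08, rank 8606) and Mvk (r = -0.06, rank 8141). Pmvk, Acat2 and Lbr were also low, with r of 0.07, 0.08 and 0.12. These values describe 24 libraries that share animals, depth and the tied extremes, and were not tested.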

How the data were processed

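Total RNA from cortex was depleted of ribosomal RNA and sequenced in 24 libraries, per the labels' protocols. The authors deposited log2 CPM in 4 tables of 2 groups each, and the log2 values are used as deposited, with no pseudocount added. The genome build is mm10 per the submitters' processing notes. The aligner, counting, strand use, filters and scaling are not given in the sources used here. Column names matched the samples' descriptions, with 0 unused columns.

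In 100% of genes and groups the 2 lowest and 2 highest of 6 deposited values were tied. Taken as 0.75 times the second value plus 0.25 times the next, the ties gave a second value that was a whole number of reads (within 0.03 read) in 80.4% to 88.0% of low values, against 8.94% to 13.2% as deposited and 11.6% by chance. Depth was read from the step between low values. Groups were compared by their means over the 4 recovered values, with the Winsorized sum of squares as error (6 degrees of freedom for 2 groups, 12 for the interaction), moderated with a trend by limma 3.58.1 in R 4.3.3, two-sided, adjusted by Benjamini-Hochberg over all genes of a table. The test was tested on simulated data. Alternatives were limma on the deposited values, no trend, median centring, a filter at a mean of 1 log2 CPM, a pseudocount of 1 CPM, and a replicate block, a paired form of the test. For median centring, tied values were set to the recovered ones and trimmed again after the shift.

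The titles give a CL and a PI library of one genotype the same number, which is taken here to mark 1 animal. Deviations of same-numbered libraries correlated with r from -0.006 to 0.20 in WT and -0.01 to 0.19 in KO. The same number gave the highest r for 5 of 6 PI libraries in WT and 3 of 6 in KO. Between genotypes, where a shared number marks different animals, r ran from -0.19 to 0.15 in PI and -0.13 to 0.13 in CL.

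The 7 genes and the lists were chosen with earlier results of these data known. Some genes of the lists are not reported here and were left out of the list counts. Genes named were the 7, called genes of the lists, the 2 largest changes per list between PI and CL, and the 5 most similar genes. Positions and promoters are from RefSeq on GRCm38.p6, exon overlaps from GENCODE M21.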

Additional observations from a re-analysis of the deposited data

How the results depend on the processing

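Of the 35 log2 fold changes of the 7 genes (5 comparisons), none changed sign under the 6 alternatives, and all 35 kept their side of the threshold under median centring, the low-value filter and the pseudocount. Without a trend in the prior variance, all genes called fell to 1015 between PI and CL in WT and 739 in KO. In KO this setting called 0 of the 7 and 2 of the 20 synthesis genes. Limma on the deposited values, whose spread is too small, called 6459 genes in WT (6 of the 7, 14 of the 20) and 6666 in KO (5 and 10). Between genotypes it called 2388 in PI (2 and 3) and 2311 in CL (1 and 4), and for the interaction 1940 genes, 2 of them among the 20. With the replicate block, 5 of the 7 and 8 of the 20 were called between PI and CL in WT, and 6 genes in all between genotypes in PI, 85 in CL and 1 for the interaction. In the comparisons of genotypes a replicate number is shared by different animals, so the block there has no pairing behind it, and it called none of the 7. Apart from Sqle in WT and Insig1 in both genotypes, the block changed no call of the 7. Leaving out single libraries was not run, since the trimmed mean already leaves out the lowest and highest of each group. The lowest and highest values of each group are unknown, which limits the precision of every error given.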
